A study of Mus musculus with 24 samples.

Results

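Edn1, Ednra, Ednrb, Ece1, Agtr1a, Agtr2, Nppb, Npr1, Npr2 and Npr3, the genes of endothelin, angiotensin and natriuretic peptide signaling examined here, were chosen by gene name on the array, and all 10 were found among the 27962 gene names it carries, through 21 of its 41174 probes. The genes were picked with results of these same arrays in view, so their values, and the calls that the fit across all probes gives them, are a description and support nothing. The arrays measured RNA of immortalized mouse embryonic fibroblasts labeled Ku70-/-, that is with the Xrcc6 gene disrupted, whose product, Ku70, serves double-strand break repair; every group, the controls included, carries that label. The study asked how the plasticizer bisphenol A (BPA) at 150 µM alters the response of such cells to the oxidizing agent potassium bromate (KBrO3).

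There were 8 groups of 3 biological replicates, 1 array each, in 2 separately processed sets. The first set of 15 arrays held untreated controls, labeled as sampled at 4 hr; cells given 20 mM KBrO3 for 1 hr and then left to repair for 3 or 23 hr, called 4 and 24 hr here; and co-exposed cells, which received BPA for 1 hr before KBrO3, with KBrO3 for 1 hr and after it until 4 or 24 hr. The second set of 9 arrays held its own untreated controls, for which no time is given, and cells in BPA alone for 4 or 24 hr by the labels. Each treatment was set against the controls of its own set, and co-exposure also against KBrO3 alone; no control was labeled as sampled at 24 hr, so time in culture and treatment cannot be told apart there. All arrays come from 1 cell line, so the spread is that between its cultures, as read on their slides. Each set was scanned on 5 slides. Slide 2 of the first set holds the 3 arrays of KBrO3 at 4 hr with 1 control. Slide 4 holds 2 arrays each of KBrO3 and co-exposure at 24 hr. No other comparison in that set has a slide with both of its groups. The 3 arrays of co-exposure at 4 hr share slide 3, so neither 4 hr treatment group there has any slide difference in its spread. Fitted as a random block, slide gave arrays that share it a correlation of 0.634 across the first set and 0.114 across the second. The SE and p given here are from a fit without blocks, which leaves this correlation out.

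Endothelin 1, angiotensin II and the natriuretic peptides are peptide hormones that set the tone of blood vessels. Endothelin and angiotensin constrict vessels through receptors coupled to G proteins that raise calcium, and both act on fibroblasts, in which they promote matrix production. Natriuretic peptides oppose them through receptors that are themselves guanylyl cyclases and make the messenger cyclic GMP, while a further receptor, Npr3, takes the peptides up and removes them.

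Promoters are shown first for the 4 genes in whose windows a match to 1 of 3 motifs was found, as RefSeq gives them for GRCm38.p6, from 250 bases before to 50 bases after the annotated start. RefSeq windows were found for 9 of the 10 genes, all but Agtr1a. Capitals mark matches on either strand to TGACTNA, a loose form of the AP-1 element with any base at N. Likewise marked are AGATAA, which GATA factors bind, and TATAAA, known as the TATA box; none of the marked matches overlaps another.
Edn1, chr13:42301226-42301525, plus strand: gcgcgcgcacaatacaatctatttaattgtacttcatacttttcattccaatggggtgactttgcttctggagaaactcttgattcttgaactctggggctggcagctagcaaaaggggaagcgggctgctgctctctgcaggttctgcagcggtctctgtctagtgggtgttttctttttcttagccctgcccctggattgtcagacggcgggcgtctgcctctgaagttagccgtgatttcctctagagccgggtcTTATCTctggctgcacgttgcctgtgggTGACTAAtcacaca
Agtr2, chrX:21484374-21484673, plus strand: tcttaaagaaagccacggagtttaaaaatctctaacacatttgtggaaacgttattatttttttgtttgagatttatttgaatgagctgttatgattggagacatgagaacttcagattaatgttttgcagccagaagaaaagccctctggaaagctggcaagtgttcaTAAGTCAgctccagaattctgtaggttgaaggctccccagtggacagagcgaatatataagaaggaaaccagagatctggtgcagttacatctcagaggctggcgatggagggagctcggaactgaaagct
Nppb, chr4:147985650-147985949, plus strand: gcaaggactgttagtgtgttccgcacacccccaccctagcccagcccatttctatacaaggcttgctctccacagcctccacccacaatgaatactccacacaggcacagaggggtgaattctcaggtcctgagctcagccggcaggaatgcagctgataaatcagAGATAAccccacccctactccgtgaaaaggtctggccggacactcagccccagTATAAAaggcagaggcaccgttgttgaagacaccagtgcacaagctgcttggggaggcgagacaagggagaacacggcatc
Npr3, chr15:11907322-11907621, minus strand: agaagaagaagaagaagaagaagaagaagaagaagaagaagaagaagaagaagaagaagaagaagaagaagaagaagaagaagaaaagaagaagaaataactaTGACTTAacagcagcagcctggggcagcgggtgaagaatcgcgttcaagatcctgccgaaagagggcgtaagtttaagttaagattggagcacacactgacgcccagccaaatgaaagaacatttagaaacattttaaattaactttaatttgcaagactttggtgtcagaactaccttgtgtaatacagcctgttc

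The AP-1 letters stand in the windows of Edn1 (37 bases after the start), Agtr2 (81 bases before it, on the opposite strand) and Npr3 (147 bases before it), which is 3 of the 9 genes. Of all 32851 promoter windows of the same length 13.9% hold them, a share counted by window and not by gene. GATA letters stand in Edn1, 9 bases after the start on the opposite strand, and in Nppb, 84 bases before the start; 11.2% of all windows hold them. The TATA box letters stand in Nppb alone among the 9 genes, 31 bases before the start, and in 13.6% of all windows. The windows of Ece1 (4 of them), Ednra, Ednrb, Npr1 and Npr2 hold none of the 3 motifs. A match is only a match of letters; binding of a factor was not measured.

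Signals are given as log2 processed signal minus the 75th percentile of the array, so that 0 is the signal of a spot brighter than 75% of the others; different probes cannot be ranked by level. The share of spots well above background was 57.7% to 68.1% for the first set of arrays, against 76.4% to 79.4% for the second, and the spread between replicates was smaller there, with a median residual SD in log2 units of 0.107, against 0.340 for the second set. With 3 arrays per group, their number limits the precision. By the brightest probe, 9 of the 10 genes had in each set a group whose arrays were all well above background, and Npr1 had none. Xrcc6 itself was well above background on all arrays, at 0.097 ± 0.10 (SD, n = 3) in the first controls and −0.072 ± 0.26 (SD, n = 3) in the second; cells with the gene intact were not among the arrays, so the genotype label is not checked by these data.

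All 10 fibroblast markers were well above background on every control array of both sets. Among other cell types, the cardiac muscle marker Myh6 was well above background in no group, the endothelial markers Pecam1 and Tie1 and the leukocyte marker Ptprc were so on no array, and the epithelial marker Cdh1 and the endothelial Cdh5 on none of the first set. Marker levels moved with the treatments. The summed linear signal of the 10 fibroblast markers lay at 1360.3 to 1455 times the 75th percentile in the first controls, at 1238 to 1297 and 1061 to 1092 at 4 hr after KBrO3 alone and co-exposure, at 496 to 547 after KBrO3 at 24 hr, and at 382 to 433 in co-exposed cells at 24 hr, where 0 of 3 arrays had Thy1 well above background. In the second set both BPA groups overlapped the controls in this sum. It was 526 to 669 in the controls, 567 to 637 after BPA at 4 hr and 485 to 555 after BPA at 24 hr. The sum of the 5 smooth muscle markers, of which 4 were measured and Des was not, lay at 51.5 to 52.0 in the first controls and 68.4 to 69.8 with KBrO3 and 45.7 to 48.1 with co-exposure at 4 hr, 13.1 to 14.1 with KBrO3 and 4.01 to 4.83 with co-exposure at 24 hr, and at 34.2 to 47.9 in the second controls, 43.4 to 51.2 after BPA at 4 hr and 16 to 28.5 after BPA at 24 hr. Of the lists for other cell types, 2 to 5 of 7 endothelial, 1 to 2 of 5 cardiac, 1 to 3 of 5 macrophage and 1 to 4 of 5 epithelial markers were well above background on every array of a group. The summed signal of the macrophage list was 0.153 to 0.197 in the first controls, 0.633 to 0.681 with KBrO3 and 0.483 to 0.487 with co-exposure at 4 hr, 0.304 to 0.351 and 0.414 to 0.505 at 24 hr, and 0.162 to 0.202, 0.178 to 0.192 and 0.18 to 0.196 in the second controls and after BPA at 4 and 24 hr. The cardiac list summed to 0.66 to 0.726 in the first controls, below which lay 0.278 to 0.306 with KBrO3 and 0.286 to 0.301 with co-exposure at 4 hr, while the sums at 24 hr were 0.444 to 0.455 and 0.383 to 0.544; in the second set it summed to 0.446 to 0.568 in the controls and 0.342 to 0.444 and 0.321 to 0.525 with BPA. The endothelial list summed to 0.19 to 0.243 in the first controls, above which lay 0.28 to 0.321 with KBrO3 and 0.305 to 0.358 with co-exposure at 4 hr, while the sums at 24 hr were 0.221 to 0.258 and 0.171 to 0.178; in the second set it summed to 0.154 to 0.231 in the controls and 0.167 to 0.209 and 0.179 to 0.202 with BPA. The epithelial list summed to 0.149 to 0.202 in the first controls, and to 0.185 to 0.255 with KBrO3 and 0.146 to 0.167 with co-exposure at 4 hr, while the sums at 24 hr were 0.13 to 0.168 and 0.0931 to 0.111; in the second set it summed to 0.147 to 0.545 in the controls and 0.141 to 0.155 and 0.125 to 0.195 with BPA. In the epithelial list replicate 1 of the second controls stood apart, with the keratin genes Krt18 at −1.72 against −5.02 and −4.78 on the other controls and Krt8 at −2.60 against −5.30 and −4.69. Without this array the log2 differences with BPA alone at 4 and 24 hr were −1.13 and −1.54 for Edn1, −0.94 and −3.16 for Agtr2, and −1.64 and −3.31 for Npr3; those of the 9 measured genes kept their sign except Nppb at 4 hr, which went from −0.028 to 0.017, and the call of Npr3 at 24 hr was lost. The part of these shifts in the results that follow was not tested. In RNA from whole cultures, fewer cells of a type and less RNA per cell cannot be told apart.

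Edn1, which encodes the endothelin 1 precursor, lay far below control at 4 hr after KBrO3 and at both times after co-exposure. In the first controls its log2 signal was −1.82, −1.77 and −1.99. After KBrO3 at 4 hr it was −5.27, −5.17 and −4.90, with 1 of the 3 arrays well above background. The measured signals differed from control by −3.25 ± 0.12 (SE), or 9.52-fold lower, and 2 of the 3 arrays give only a bound. After co-exposure at 4 hr it was −5.65, −5.65 and −5.48, of which 0 of 3 were well above background, and at least 11.9-fold lower than control. A bound of this kind sets the mean of the measured group against the dimmest signal that was still well above background on each array, or the probe's own signal if that was higher. At 24 hr after KBrO3 alone the signal was −2.95, −2.80 and −3.13, 2.14-fold lower than control, which was short of the thresholds for a call, a p below 0.01 after Bonferroni adjustment together with a fold beyond 1.5. All 3 of these arrays lay above all 3 arrays of KBrO3 at 4 hr.

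The return towards control at 24 hr was seen without BPA and not with it. Co-exposed cells at 24 hr gave −6.46, −6.52 and −6.17, again with 0 of 3 well above background, at least 10.5-fold lower than control and at least 4.93-fold lower than KBrO3 alone at the same time. The measured means of the last pair were −6.39 ± 0.19 and −2.96 ± 0.16 (SD, n = 3 each). Within the slide that holds 2 arrays of each of these groups the measured signals, those of co-exposure being at background, differed by −3.53 on the log2 scale. BPA alone also stood apart from its own controls: the controls gave −1.69, −1.31 and −1.45, BPA at 4 hr −2.72, −2.21 and −2.61 and BPA at 24 hr −2.76, −2.93 and −3.08. No BPA array overlapped the controls, and the difference was −1.03 ± 0.21 (SE) at 4 hr and −1.44 ± 0.21 (SE) at 24 hr.

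Ece1, the protease that cuts big endothelin to its active form, lay farther below control at 24 hr than at 4 hr in the first set. Its brightest probe gave 5.33, 5.23 and 5.17 in the first controls and 5.16, 5.15 and 5.10 after KBrO3 at 4 hr, a difference of −0.10 ± 0.052 (SE). Co-exposure at 4 hr gave 4.77, 4.82 and 4.79, all below control, by 0.45 ± 0.052 (SE). At 24 hr after KBrO3 it gave 3.99, 3.89 and 3.92, 2.48-fold lower than control, and after co-exposure 4.15, 4.25 and 4.08, 2.12-fold lower than control. Both 24 hr groups lay below every control array, and the co-exposed arrays lay above the KBrO3 arrays by 0.23. With BPA alone the groups overlapped, with differences of −0.0056 ± 0.23 (SE) at 4 hr and 0.18 ± 0.23 (SE) at 24 hr. A second Ece1 probe, designed on a cDNA from cerebellum, was dim: it was well above background on the 3 first controls, at −5.55, −5.19 and −4.88, and on 1 of the 12 treated arrays of that set.

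Ednra, the endothelin receptor that mediates constriction, lay below control in every KBrO3 group. Its brightest probe gave 0.017, −0.040 and −0.016 in the first controls. It gave −2.68, −2.57 and −2.60 after KBrO3 and −2.80, −2.90 and −2.72 after co-exposure at 4 hr, which were 6.07-fold lower and 6.94-fold lower than control. At 24 hr it gave −3.70, −3.55 and −3.45 after KBrO3, 11.7-fold lower than control. Co-exposed cells at 24 hr gave −2.68, −2.64 and −2.85, all above the KBrO3 arrays, 1.79-fold higher than KBrO3 alone and still 6.54-fold lower than control. Ednra was thus the one gene of the 10 that passed the thresholds upwards when BPA was added to KBrO3 at 24 hr, at a log2 difference of 0.84 ± 0.074 (SE). It no longer passed without KBrO3 replicate 1 or 2, at 0.77 and 0.85, or without co-exposed replicate 1 or 2, at 0.82 and 0.80. With median scaling or quantile normalization of the arrays it was 1.01 and 0.93 and did not pass either.

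The second Ednra probe gave the same direction against control, at least 3.37-fold lower with KBrO3 and at least 4.18-fold lower with co-exposure at 4 hr, since no treated array of the first set had it well above background, and at 24 hr it gave at least 4.47-fold lower and at least 3.69-fold lower. It overlapped between co-exposure and KBrO3 alone at 24 hr, at −6.20, −5.83 and −5.52 against −5.74, −6.48 and −6.18, which are not well above background. No array of the first set had either of the other Ednra probes well above background. With BPA alone the brightest probe gave −0.10, −0.38 and −0.14 in the controls, −1.08, −0.53 and −0.72 at 4 hr, all below the controls, and −0.84, −0.025 and −0.33 at 24 hr, which overlapped them.

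Ednrb, the second endothelin receptor, showed by its brightest probe opposite differences at the 2 times after co-exposure. The first controls gave −3.73, −3.59 and −3.41 and KBrO3 at 4 hr gave −3.46, −3.63 and −3.46, which overlapped them. Co-exposure at 4 hr gave −2.52, −2.56 and −2.63, all above control and above KBrO3 alone, by 1.01 ± 0.24 (SE) and 0.95 ± 0.24 (SE) on the log2 scale. Co-exposure at 24 hr gave −4.41, −4.60 and −4.44, all below control, at a difference of −0.91 ± 0.24 (SE). After KBrO3 alone at 24 hr the arrays spread widely, at −3.30, −4.38 and −4.49, and replicate 1 decided the group's difference from control, −0.48 with it and −0.86 without it. On the slide shared by 2 arrays of each group, co-exposure and KBrO3 alone at 24 hr differed by −0.067. None of the Ednrb differences passed the thresholds. The second Ednrb probe disagreed in size at 4 hr. It gave −4.53 ± 0.076 after co-exposure and −4.75 ± 0.22 after KBrO3 alone (mean ± SD, n = 3 each), all arrays being well above background and overlapping, a difference of 0.22 ± 0.32 (SE) where the first gave 0.95. Against control its co-exposed arrays lay higher by 0.62, with 1 of 3 control arrays well above background, and at 24 hr 0 of 3 co-exposed arrays were, so that it gives no direction there.

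**Figure D1:**
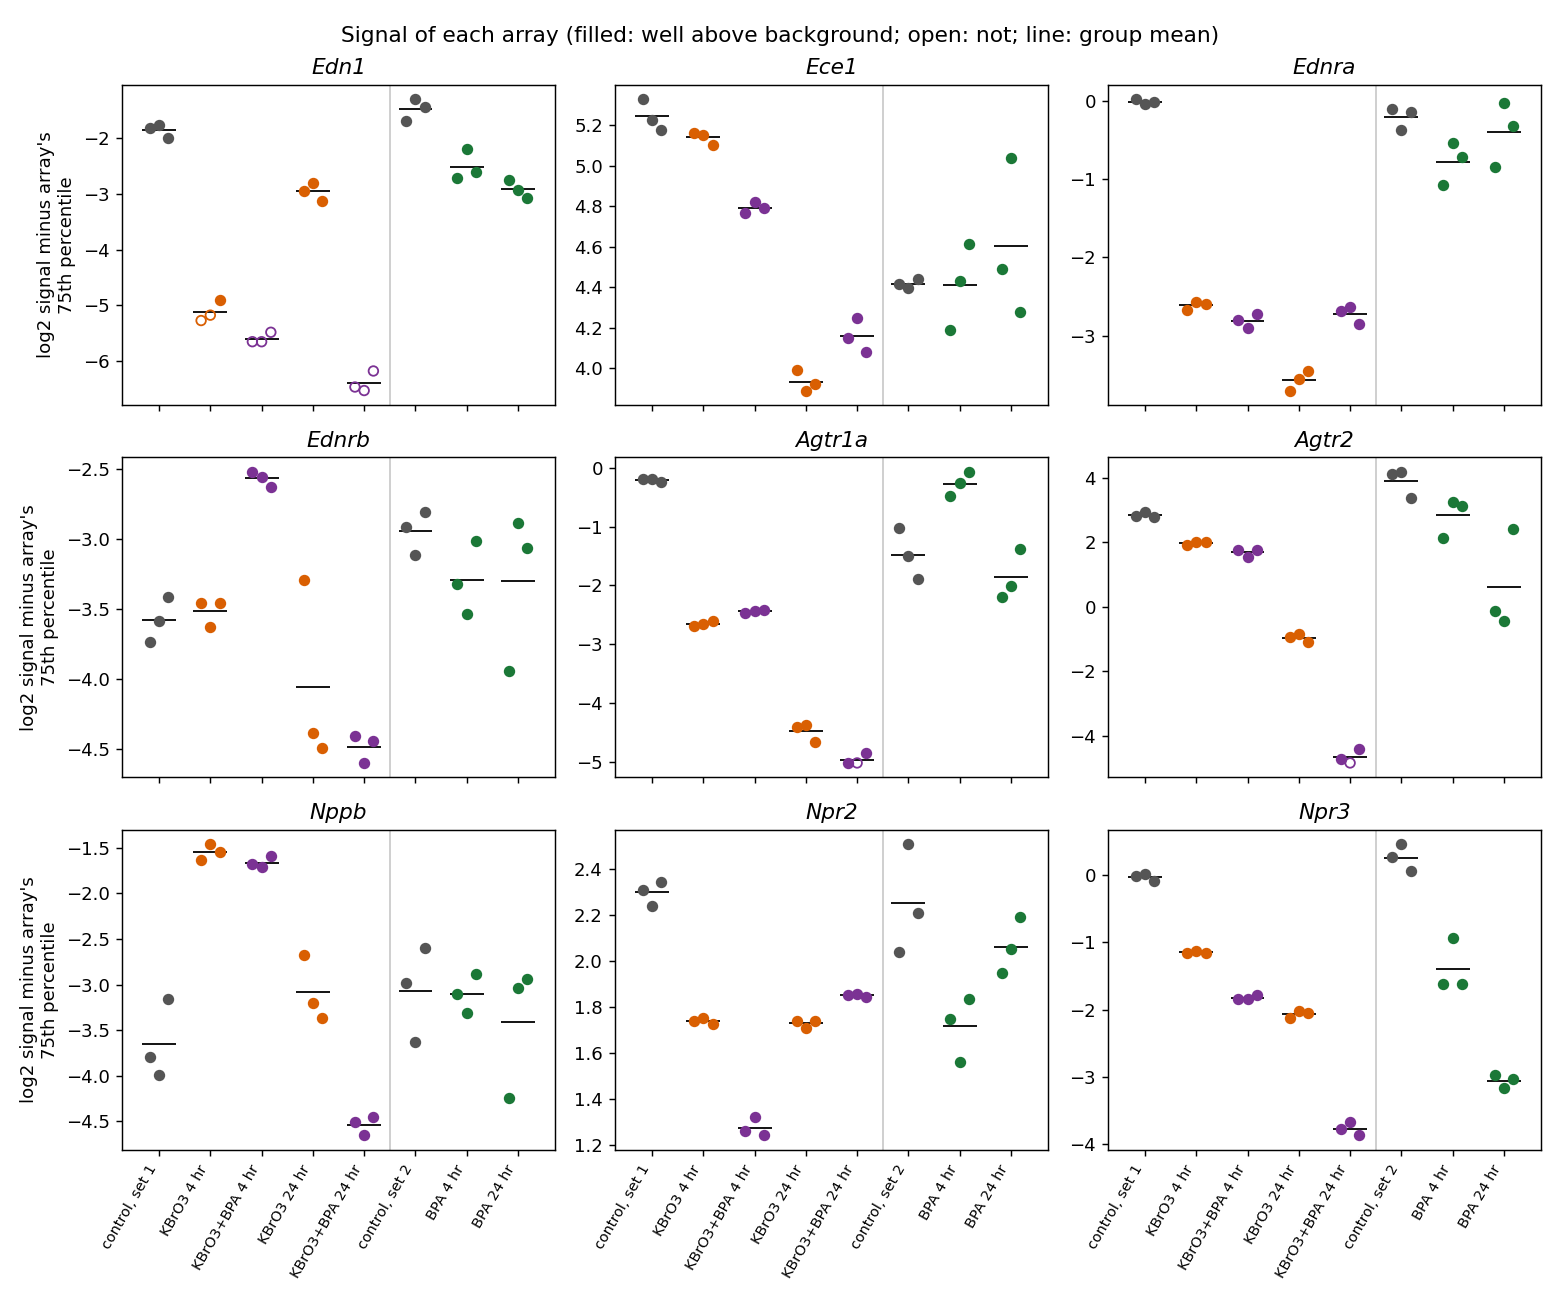
Each panel plots, for 1 gene, the log2 signal minus the array's 75th percentile (vertical axis, brightest probe of the gene) of the 3 arrays of each of the 8 groups (horizontal axis); the grey line parts the first set from the second, filled points were well above background, open points were not, and the black line is the group mean. Agtr2 and Npr3 have their lowest group at co-exposure for 24 hr, at means of −4.67 and −3.77, the points of Edn1 are open in both co-exposed groups, and Nppb is high in both 4 hr groups of the first set, at −1.55 after KBrO3.

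Both angiotensin II receptors lay below control after KBrO3, Agtr1a already strongly at 4 hr and Agtr2 mostly at 24 hr. Agtr1a encodes the receptor that carries the constrictor and matrix-promoting effects of angiotensin II. Its brightest probe gave −0.19, −0.18 and −0.23 in the first controls, −2.69, −2.66 and −2.61 after KBrO3 at 4 hr and −2.47, −2.43 and −2.42 after co-exposure at 4 hr, 5.47-fold lower and 4.72-fold lower than control. At 24 hr it gave −4.42, −4.37 and −4.67 after KBrO3 and −5.02, −5.02 and −4.86 after co-exposure, 19.5-fold lower and 27.2-fold lower than control. Of the 3 co-exposed arrays 2 were well above background, and the remaining array gives only a bound. The 24 hr arrays all lay below the 4 hr arrays of the same treatment. Co-exposure differed from KBrO3 alone by 0.21 ± 0.072 (SE) at 4 hr and −0.48 ± 0.072 (SE) at 24 hr.

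With BPA alone Agtr1a went the other way at 4 hr. The second controls gave −1.03, −1.50 and −1.90, BPA at 4 hr gave −0.48, −0.25 and −0.066, all above the controls and 2.31-fold higher, and BPA at 24 hr gave −2.20, −2.02 and −1.37, which overlapped them. Neither difference passed the thresholds. The second Agtr1a probe was at least 4.11-fold lower than control at 4 hr with KBrO3 and at least 4.69-fold lower at 24 hr with co-exposure, as 0 of 3 arrays of either group had it well above background. It was 1.91-fold lower at 4 hr with co-exposure, where all 3 arrays were measured, and at 24 hr with KBrO3 1 of 3 arrays was. Of its differences from control in the first set, only that of co-exposure at 24 hr passed the thresholds.

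Agtr2, an X-linked gene for the receptor that opposes many effects of Agtr1a and that is high in embryonic connective tissue, covered the widest range of the 10 genes. The first controls gave 2.83, 2.93 and 2.80. At 4 hr KBrO3 gave 1.92, 2.01 and 2.02 and co-exposure 1.78, 1.55 and 1.75, 1.83-fold lower and 2.23-fold lower than control. Of these, only the second passed the thresholds, and it failed them on leaving out any 1 of its 6 arrays, with log2 differences of −1.20 to −1.09. At 24 hr KBrO3 gave −0.94, −0.85 and −1.09, 14.1-fold lower than control. Co-exposure at 24 hr gave −4.74, −4.85 and −4.42, with 2 of 3 arrays well above background. The measured signals were 184-fold lower than control and 13.1-fold lower than KBrO3 alone, and the remaining co-exposed array gives only a bound. The slide with 2 arrays of each of the last groups gave a log2 difference of −3.82.

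BPA alone was followed by lower Agtr2 as well, with 1 array apart. The second controls gave 4.12, 4.19 and 3.37, BPA at 4 hr gave 2.14, 3.26 and 3.12, and BPA at 24 hr gave −0.12, −0.43 and 2.41. All BPA arrays lay below all of these controls. Replicate 3 of BPA at 24 hr stood well above the other two, and it lies on a slide of its own. The mean difference at 24 hr was −3.28 ± 0.68 (SE), short of the thresholds, and it was −4.17 without that array. The slides that pair 1 BPA array with 1 control gave −4.32 and −3.80. Agtr2 has a single probe on this array.

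Nppb, which encodes the precursor of B-type natriuretic peptide, was the one gene of the 10 that passed the thresholds above control after KBrO3 alone, and it did so at 4 hr. It is shown here by its 2 probes, which read different stretches of the transcript. The first, at chr4:146975497-146975556 of the mm7 build named for the array, runs across the start codon, in capitals, from the end of the leader before it into the coding sequence, and the second, at chr4:146975922-146975981, lies within the coding sequence.
Nppb probe 1: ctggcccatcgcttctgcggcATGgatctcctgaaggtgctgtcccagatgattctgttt
Nppb probe 2: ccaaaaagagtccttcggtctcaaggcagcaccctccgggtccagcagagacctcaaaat
The first probe gave −3.80, −3.99 and −3.16 in the first controls, −1.63, −1.46 and −1.54 after KBrO3 at 4 hr and −1.68, −1.72 and −1.59 after co-exposure at 4 hr. All treated arrays lay above all controls, 4.3-fold higher and 3.96-fold higher. The second probe gave 5.37-fold higher and 3.22-fold higher signals. The difference after KBrO3 passed the thresholds with both probes, that after co-exposure with the second probe only.

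By 24 hr the Nppb signal lay much nearer to control. After KBrO3 alone the first probe gave −2.67, −3.21 and −3.36, which overlapped the controls, and the second gave −3.12, −2.90 and −2.85, all above its controls at −3.67, −3.55 and −3.38. After co-exposure it gave −4.50, −4.65 and −4.45, all below control by 0.88 ± 0.20 (SE), and 2.74-fold lower than KBrO3 alone, against 2.33-fold lower with the second probe. The 3 control arrays of the first probe ran from −3.99 to −3.16, and the call after KBrO3 at 4 hr was lost when any 1 of 5 of the 6 arrays was left out, with log2 differences of 1.93 to 2.15, and kept without control replicate 3, at 2.35. Without that control the difference after co-exposure at 4 hr, 2.23, passed too. On the slide that holds KBrO3 at 4 hr and 1 control array the difference was 1.62. At 4 hr the second probe lay lower after co-exposure than after KBrO3 alone, by 0.74 ± 0.095 (SE), where the first differed by −0.12 and overlapped. With BPA alone the first probe overlapped its controls at both times, at −0.028 and −0.34 on the log2 scale. The second gave −5.09, −5.05 and −4.83 at 4 hr, all above its controls at −5.40, −5.28 and −5.53, by 0.41 ± 0.23 (SE), and overlapped them at 24 hr.

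Npr1 and Npr2, the guanylyl cyclase receptors for A- and B-type and for C-type natriuretic peptide, gave unlike signals. The Npr1 probe and the second Npr2 probe cover the same conserved stretch of their genes. Where they overlap, 34 of 40 bases are identical, and the 6 that differ are in capitals. The Npr1 probe spans chr3:90585984-90586477 and the Npr2 probe chr4:43662168-43662227 in mm7.
Npr1 probe: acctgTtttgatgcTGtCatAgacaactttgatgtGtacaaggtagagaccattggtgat
Npr2 probe 2: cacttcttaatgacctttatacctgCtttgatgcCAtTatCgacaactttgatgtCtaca
No array of the first set had the Npr1 probe well above background, at −8.14 to −7.30, and 2 of 9 arrays of the second did. It was tested in neither set, and its values carry no comparison. The Npr2 probe was well above background on all 24 arrays, at 0.21, 0.22 and 0.46 in the first controls.

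Npr2 lay modestly below control in every treated group of the first set. The brightest probe gave 2.31, 2.24 and 2.34 in the controls, 1.74, 1.75 and 1.73 after KBrO3 and 1.26, 1.32 and 1.24 after co-exposure at 4 hr. The last group was 2.03-fold lower than control and 1.38-fold lower than KBrO3 alone. At 24 hr KBrO3 gave 1.74, 1.71 and 1.74 and co-exposure 1.85, 1.86 and 1.84, 1.48-fold lower and 1.36-fold lower than control. The spread of these groups was small, with an SD of at most 0.054 in the first set, so that no treated array overlapped a control although only co-exposure at 4 hr passed the fold threshold. The second probe gave smaller differences in the same direction, of −0.55 and −0.39 for KBrO3 at 4 and 24 hr and −0.90 and −0.28 for co-exposure. The dimmest probe disagreed at 4 hr: co-exposed arrays overlapped control at 0.15 and lay above KBrO3 alone by 0.80. BPA alone gave 1.75, 1.56 and 1.83 at 4 hr, all below the controls at 2.04, 2.51 and 2.21, and 1.94, 2.05 and 2.19 at 24 hr, which overlapped them.

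Npr3, the clearance receptor that removes natriuretic peptides from the medium, lay below control in every treated group of both sets. Its brightest probe gave −0.016, 0.0094 and −0.091 in the first controls. It gave −1.15, −1.14 and −1.16 after KBrO3 at 4 hr and −1.85, −1.85 and −1.78 after co-exposure at 4 hr, 2.17-fold lower and 3.47-fold lower than control. At 24 hr it gave −2.12, −2.03 and −2.04 after KBrO3 and −3.77, −3.67 and −3.86 after co-exposure, 4.08-fold lower and 13.3-fold lower than control. No 2 of these 5 groups overlapped, and co-exposure was 1.6-fold lower than KBrO3 alone at 4 hr and 3.26-fold lower at 24 hr. The first of these calls was lost without KBrO3 replicate 2, at a log2 difference of −0.67. It was also lost with slide as a random block and under median scaling, and its groups stand on different slides. The slide with 2 arrays of each group gave −1.68 at 24 hr.

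The same order with time was seen with BPA alone. The second controls gave 0.26, 0.45 and 0.047, BPA at 4 hr gave −1.62, −0.94 and −1.62 and BPA at 24 hr gave −2.97, −3.17 and −3.04, 3.13-fold lower and 9.92-fold lower than control. The slides that hold both BPA at 24 hr and a control gave log2 differences of −3.42 and −3.21. The call at 24 hr was lost on leaving out any 1 of the 6 arrays, with log2 differences of −3.41 to −3.21. The 3 Npr3 probes agreed in direction in all 8 comparisons: against control at 24 hr they gave −3.73, −3.11 and −2.79 after co-exposure and −3.31, −3.04 and −3.24 after BPA alone. Probe 3 was well above background on 0 of 3 arrays of co-exposure at 24 hr.

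**Figure D2:**
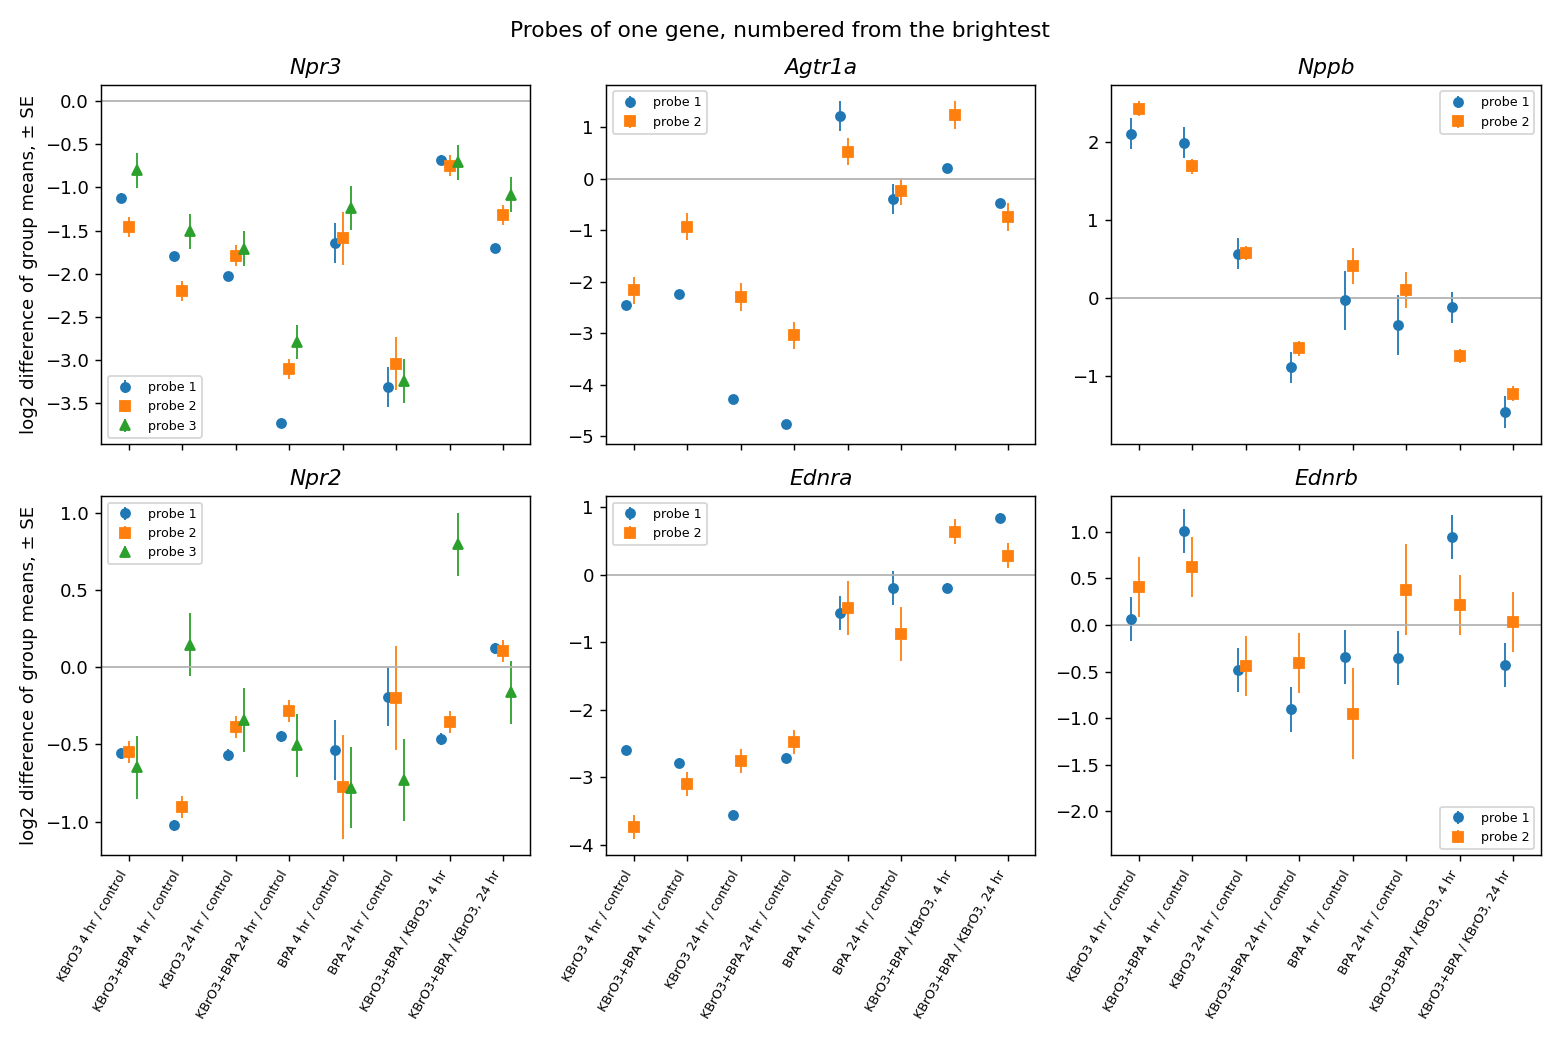
Log2 difference of group means with its standard error (vertical axis) for each tested probe of 6 genes in each of the 8 comparisons (horizontal axis); probes are numbered from the brightest, and the Ednra probes that were not well above background in the first set are left out. All 3 Npr3 probes lie below 0 in every comparison. The second Agtr1a probe was well above background on 0 of 3 arrays of KBrO3 at 4 hr and of co-exposure at 24 hr. For KBrO3 at 24 hr it was so on 1 of 3 arrays. The second Ednra probe was well above background on no treated array of the first set. Points of such groups are differences of the measured signals, neither bounds nor sizes.

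Calls across the whole array give the background to these values. A gene was called when its brightest probe had a Bonferroni-adjusted p below 0.01 in limma's two-sided test, over all probes tested in the set, and a fold beyond 1.5. KBrO3 at 4 hr had 4 of the 9 measured genes called lower (Edn1, Ednra, Agtr1a and Npr3), where 15.5% of all genes tested were, and 1 called higher (Nppb), where 13.8% were. Co-exposure at 4 hr had 6 called lower, Agtr2 and Npr2 being added, against 18% of all genes, and 0 called higher against 15.3%. KBrO3 at 24 hr had 5 called lower (Ece1, Ednra, Agtr1a, Agtr2 and Npr3) against 10.7%, and 0 higher against 7.09%. Co-exposure at 24 hr had these 5 and Edn1 called lower against 12%, and 0 higher against 9.49%. These shares of all genes turned with the scaling at 24 hr: scaling to the median gave 1211 higher and 1134 lower rather than 1307 higher and 1975 lower for KBrO3, and 2366 higher and 1187 lower rather than 1750 higher and 2218 lower for co-exposure.

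Few genes of any kind passed with BPA alone. At 4 hr, 0 of the 9 were called, where 0.0839% of all genes were called higher and 0.00466% lower. Limma gave 5 of the 9 an unadjusted p below 0.05, as it did 18.8% of all genes. When the p was adjusted by Benjamini-Hochberg and held to 0.05, with a fold beyond 1.5, 2 passed. The share of all genes passing that rule was not computed, so nothing is read from the 2. At 24 hr, Npr3 was called lower, where 0.0186% of all genes were, and 0 were called higher, where 0.00466% were. Co-exposure against KBrO3 alone had Npr3 called lower at 4 hr, where 2.85% of all genes were called lower and 2.65% higher. At 24 hr it had Edn1, Agtr2 and Npr3 called lower against 3.48% of all genes, and Ednra higher against 3.2%. Scaling to the median gave, over all genes, 155 higher and 379 lower at 4 hr rather than 488 higher and 525 lower, and 501 higher and 276 lower at 24 hr rather than 590 higher and 641 lower; for BPA alone at 24 hr it gave 3 higher and 4 lower rather than 1 higher and 4 lower. With slide as a random block the calls among the 9 genes numbered 6 with KBrO3 and 5 with co-exposure at 4 hr and 0 against KBrO3 alone at 4 hr, and as many as before in the other comparisons, and the log2 differences at 24 hr from KBrO3 alone were −3.77 for Agtr2, −1.69 for Npr3 and 0.84 for Ednra. Shares of all genes with slide as a block were not computed. The 10 genes were chosen with these comparisons known, so nothing is read from the counts. The comparisons with control within a set share their control arrays.

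**Figure D3:**
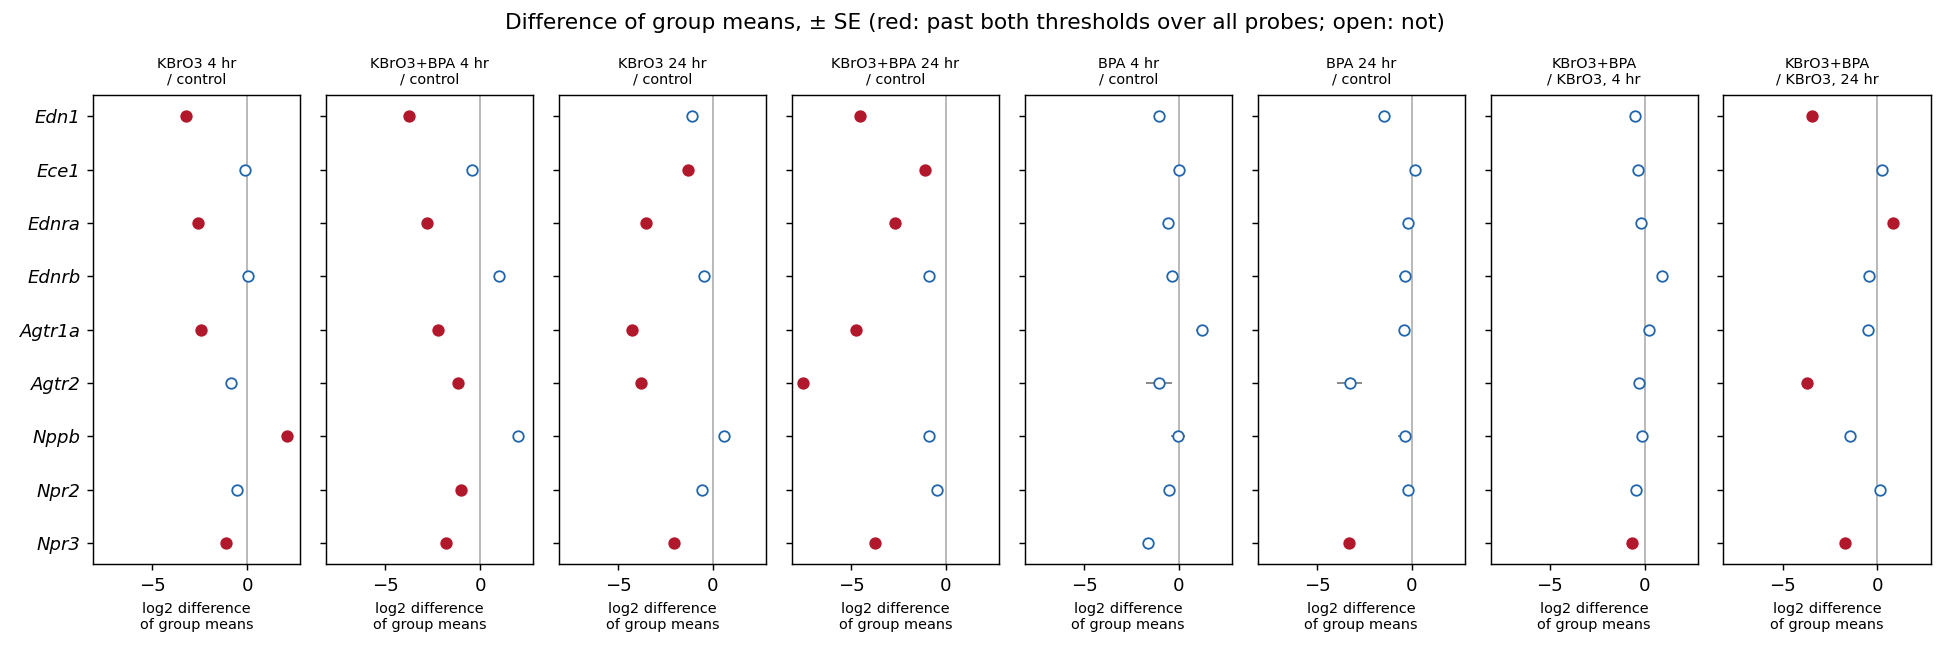
Log2 difference of group means (horizontal axis, 1 panel per comparison) of the 9 measured genes (vertical axis), with the standard error as a bar where it exceeds the point; red points passed both thresholds over all probes tested and open points did not. Agtr2 after co-exposure at 24 hr, with 2 of 3 arrays well above background, lies at −7.52, and Npr3 is the one gene called in 7 of the 8 panels.

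The other genes of the 3 systems were taken from a list of 47, which holds ligand precursors, enzymes that process or clear the peptides, receptor partners, and the calcium and cyclic GMP branches behind the receptors. Of these, the first set tested 35 and the second set 40, by the same limma fit. The list was chosen with earlier results of these data known, and the genes named below were picked by their values. Their p, adjusted over all probes tested, are therefore a description. KBrO3 at 4 hr had 3 of 35 called higher and 5 called lower, where 13.8% and 15.5% of all genes were, with a median log2 difference of −0.079 over the list against 0.046 over all genes tested. Co-exposure at 4 hr had 3 higher and 7 lower, against 15.3% and 18%, with a median of −0.16 against 0.051. At 24 hr KBrO3 had 2 higher and 4 lower, against 7.09% and 10.7%, with a median of −0.38 against −0.069, and co-exposure 3 higher and 6 lower, against 9.49% and 12%, with a median of −0.30 against −0.11. Co-exposure against KBrO3 alone had 1 higher and 0 lower at 4 hr, against 2.65% and 2.85% of all genes, and 3 higher and 2 lower at 24 hr, against 3.2% and 3.48%. Ece2 is among those called higher after co-exposure at 24 hr, against control and against KBrO3 alone. It was read by a probe that the array names 1810009K13Rik, not by those it names Ece2.

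Among ligand precursors, of which 3 of 6 were tested in the first set, Nppc lay above control at 4 hr. It encodes C-type natriuretic peptide, the ligand of Npr2. The first controls gave −5.57, −6.00 and −5.75, with 1 of 3 arrays well above background, KBrO3 at 4 hr gave −1.13, −1.0 and −1.08 and co-exposure at 4 hr −1.30, −1.26 and −1.25. Nppc entered the test only through the 4 hr groups in which it is high, and 2 of 3 controls give only a bound, so its p is not given; it is among the genes called higher at 4 hr. At 24 hr no array of either treatment was well above background for Nppc. With normexp background correction its log2 difference was 1.28 with KBrO3 and 1.14 with co-exposure at 4 hr, and neither passed.

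Of the enzymes, 10 of 13 were tested in the first set and 0 were called at 4 hr in any comparison with control there. Mme, neprilysin, which degrades natriuretic peptides and endothelin, fell at 24 hr. Its controls gave 1.84, 1.88 and 1.85, KBrO3 at 24 hr gave −0.52, −0.32 and −0.33 and co-exposure −1.92, −1.93 and −1.92. The difference from control was −2.25 ± 0.060 (SE), Bonferroni-adjusted p = 5.14e-09 after KBrO3, and −3.78 ± 0.060 (SE), Bonferroni-adjusted p = 1.29e-11 after co-exposure, and co-exposure lay below KBrO3 alone by 1.53 ± 0.060 (SE), Bonferroni-adjusted p = 4.19e-07. Ide, insulin-degrading enzyme, which also cleaves natriuretic peptides, rose at 24 hr, by 0.65 ± 0.055 (SE), Bonferroni-adjusted p = 0.00215 after KBrO3 and 1.07 ± 0.055 (SE), Bonferroni-adjusted p = 8.31e-06 after co-exposure. The rise after KBrO3 no longer passed without KBrO3 replicate 2 or 3 or control replicate 1 or 3, at 0.63, 0.61, 0.61 and 0.65.

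Receptor partners were lower where they were called. Mtus1, whose product binds the Agtr2 receptor, fell at 4 hr by 2.05 ± 0.14 (SE), Bonferroni-adjusted p = 0.000149 after KBrO3 and by 2.20 ± 0.14 (SE), Bonferroni-adjusted p = 6.82e-05 after co-exposure. Arrb1, beta-arrestin 1, which takes activated receptors out of signaling, gave 1.27, 1.22 and 1.32 in the first controls, 0.79, 0.84 and 0.84 after KBrO3 and −0.29, −0.27 and −0.36 after co-exposure at 24 hr, and the last fell below KBrO3 alone by 1.13 ± 0.038 (SE), Bonferroni-adjusted p = 7.17e-08. In the calcium branch, 12 of 14 genes were tested in the first set. Rgs2, which shuts off Gq, rose at 4 hr after co-exposure by 2.22 ± 0.083 (SE), Bonferroni-adjusted p = 2.53e-07 and lay above KBrO3 alone by 0.91 ± 0.083 (SE), Bonferroni-adjusted p = 0.00539 at 4 hr and 1.08 ± 0.083 (SE), Bonferroni-adjusted p = 0.000841 at 24 hr. The call against KBrO3 alone at 4 hr was lost on leaving out any 1 of the 6 arrays, at 0.88 to 0.93, and with slide as a random block, at 0.90; the 2 groups stand on different slides. The call at 24 hr was lost without co-exposed replicate 1, at 1.07, or KBrO3 replicate 3, at 1.04. Plcb4, a phospholipase C that Gq activates, fell at 24 hr after KBrO3 by 1.46 ± 0.10 (SE), Bonferroni-adjusted p = 0.000317.

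In the cyclic GMP branch, 6 of 8 genes were tested in the first set. Prkg2, a cyclic GMP-dependent protein kinase, rose in all 4 comparisons with control there. Its controls gave 0.26, 0.28 and 0.26, and the difference was 1.53 ± 0.063 (SE), Bonferroni-adjusted p = 7.49e-07 after KBrO3 at 4 hr and 1.94 ± 0.063 (SE), Bonferroni-adjusted p = 4.8e-08 after co-exposure at 24 hr. Pde5a, which breaks cyclic GMP down, fell at 4 hr by 1.62 ± 0.14 (SE), Bonferroni-adjusted p = 0.00223 after KBrO3 and was called lower after co-exposure too, where its measured difference was −2.31; 2 of 3 arrays there were not well above background and give only a bound, so no p is given. The call after KBrO3 was lost on leaving out any 1 of the 6 arrays, at −1.67 to −1.52. Gucy1a1, a subunit of the cyclase that nitric oxide activates, was well above background on 0 of 3 arrays of co-exposure at 24 hr and at least 4.41-fold lower than control. It entered the test of the first set only through the controls, in which it is high, so its p is not given; it is among the genes called lower there. Without any 1 of the 3 control arrays it was not called, at measured log2 differences of −3.79 to −3.66.

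With BPA alone, 0 of the 40 genes tested were called by limma at either time. Of these genes, 6 at 4 hr and 15 at 24 hr had an unadjusted p below 0.05, where 18.8% and 19.3% of all genes did. Under that Benjamini-Hochberg rule 2 and 3 passed, and the share of all genes that did was not computed. The median log2 difference of the list was −0.016 at 4 hr and −0.022 at 24 hr, against −0.025 and 0.0028 over all genes tested. Those that passed at 4 hr, named after their values were seen, were Rgs2 and Prkg2, which lay above control by 1.22 ± 0.26 (SE) and 2.18 ± 0.33 (SE). At 24 hr they were Agt, the angiotensinogen gene, at −1.51 ± 0.24 (SE), Ostn, the gene of an Npr3 ligand, at 3.91 ± 0.36 (SE), and Itpr2, a calcium channel of the endoplasmic reticulum, at 1.18 ± 0.26 (SE).

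**Figure D4:**
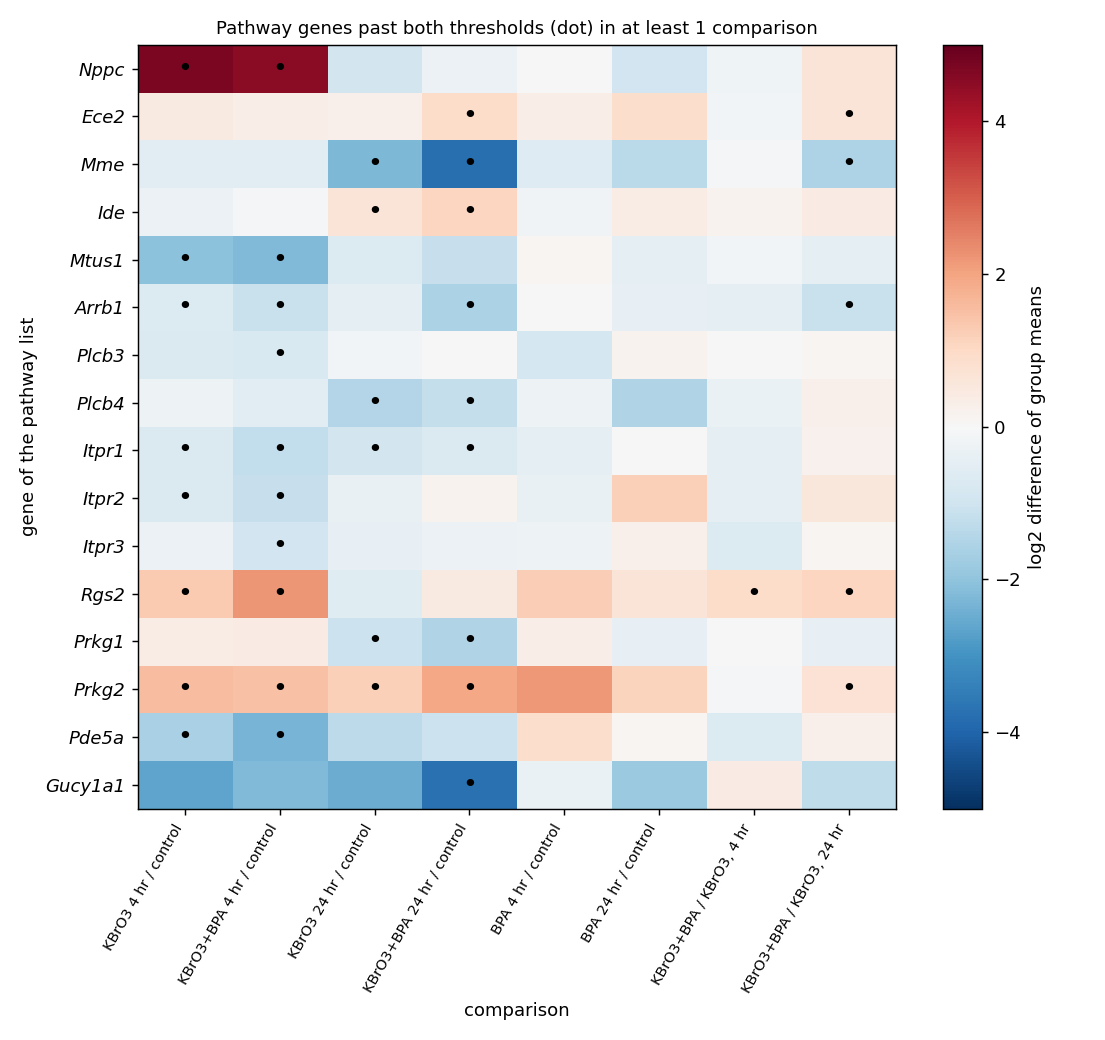
Log2 difference of group means (color, scale at the right) of the 16 genes of the list of 47 that passed both thresholds in at least 1 comparison (vertical axis), in each of the 8 comparisons (horizontal axis); a dot marks a gene past both thresholds. Nppc is high in both 4 hr columns of the first set, against controls of which 1 of 3 was well above background. Mme lies at −3.78 after co-exposure at 24 hr, and no dot stands in either BPA column. Ece2 is read by a probe that the array names 1810009K13Rik.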

How the data were processed

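Gene expression was profiled on 24 single-color Agilent arrays, 3 per group. Per the file headers, the authors extracted spot intensities with Agilent Feature Extraction 9.5.3.1 (first set) or 12.0.0.7 (second set), and the deposited intensities are background-subtracted processed signals on a linear scale, not normalized between arrays. The series table holds the same values as deposited by the authors.

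Each array's log2 processed signal was centered on the 75th percentile of its 43379 non-control spots, outlier spots were left out and spots of a probe were averaged. Tested were the probes that some group of the set had well above background on all its arrays, 27310 for the first set and 31806 for the second set. A one-way model per set was fitted in limma 3.58.1 (R 4.3.3) without weights or blocks, with two-sided moderated tests, and a probe was called at a Bonferroni-adjusted p below 0.01 with a fold beyond 1.5. Each gene is given by its brightest probe over the 24 arrays. The text names the 10 genes and, from the pathway list, up to 2 called genes with the largest rise and 2 with the largest fall in each comparison. The members and lists were chosen with earlier results of these data known. The methods describe an error-weighted fit, which was run as an alternative, as were quantile and median scaling, normexp background correction (offset 50; on median spot signals in the second set, whose mean signals were not used here), no filter and a stricter filter, the 6 arrays of a comparison alone, slide and replicate blocks, Benjamini-Hochberg adjustment, the second probe, the series table and leaving out each array. Arrays with the same replicate number were not paired. The labels' times are used for BPA alone; the methods give 1 hr more. Scripts were tested on simulated data.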

Additional observations from a re-analysis of the deposited data

Results flagged for a closer look

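Among the 9 measured genes and the 15 pathway genes named, by the brightest probe, several lay on opposite sides of their reference at 4 and 24 hr, with every array of a treated group above the reference arrays at one time and below it at the other; the differences between the times were not tested. After KBrO3 alone, Ide gave −0.29 at 4 hr and 0.65 at 24 hr on the log2 scale, Rgs2 gave 1.31 and −0.61, and Prkg1, a cyclic GMP-dependent protein kinase, gave 0.37 and −1.08. After co-exposure, Ednrb gave 1.01 at 4 hr and −0.91 at 24 hr, and Nppb gave 1.99 and −0.88. Itpr2 gave −1.17 and 0.19 after co-exposure, and Prkg1 gave 0.40 and −1.49. The share of all genes with such a turn was not computed, so nothing is read from how many are named here.

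Between co-exposure and KBrO3 alone the sign also turned with time, without overlap at either time, for the genes that follow. How many of all genes did so was not computed. In this comparison limma gave 63.5% of all genes at 4 hr and 53.9% at 24 hr an unadjusted p below 0.05. Ece1 gave −0.35 at 4 hr and 0.23 at 24 hr, and Ece2, a related protease, gave −0.13 and 0.66. The Ece2 values come from a probe that the array names 1810009K13Rik, taken here as a synonym. The dimmer probes that the array names Ece2 were not used. Ednra gave −0.19 and 0.84. Agtr1a gave 0.21 and −0.48, and Npr2 gave −0.47 and 0.12. Itpr2 gave −0.45 and 0.55, and Plcb4, a phospholipase C, gave −0.31 and 0.27. The KBrO3 and co-exposed groups at 4 hr stood on different slides, so slide and treatment cannot be told apart there.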

How the results depend on the processing

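Of 846 log2 differences of the 9 genes and 1228 of the 15 named pathway genes recomputed, 0 and 0 changed sign among those called. Of all those recomputed, 708 and 1049 kept their side of the thresholds and, where not called, moved by less than the residual SD. A further 71 and 83 stayed uncalled and moved by at least that, 43 and 70 no longer passed, and 24 and 26 newly passed. Of 184 recomputed counts of calls, 134 stayed within 1.5 times. The cause of the other 50 was not tested. Except for the scalings, shares of all genes were not computed under these alternatives, so the counts below are not set against them. With only the 6 arrays of a comparison in the fit, calls of the 9 genes were 0 (from 1) for BPA at 24 hr, 1 (from 4) for BPA added to KBrO3 at 24 hr, 0 (from 1) for BPA added to KBrO3 at 4 hr and 2 (from 5) for KBrO3 at 4 hr, and calls of the pathway list were 0 (from 5) for BPA added to KBrO3 at 24 hr, 3 (from 9) for co-exposure at 24 hr, 0 (from 1) for BPA added to KBrO3 at 4 hr, 5 (from 10) for co-exposure at 4 hr, 1 (from 6) for KBrO3 at 24 hr and 4 (from 8) for KBrO3 at 4 hr. Under the Benjamini-Hochberg rule, calls of the 9 genes were 3 (from 1) for BPA at 24 hr, 2 (from 0) for BPA at 4 hr and 2 (from 1) for BPA added to KBrO3 at 4 hr, and calls of the pathway list were 3 (from 0) for BPA at 24 hr, 2 (from 0) for BPA at 4 hr, 8 (from 5) for BPA added to KBrO3 at 24 hr, 17 (from 9) for co-exposure at 24 hr, 6 (from 1) for BPA added to KBrO3 at 4 hr and 17 (from 6) for KBrO3 at 24 hr. With each array scaled to its median, calls of the 9 genes were 0 (from 1) for BPA added to KBrO3 at 4 hr, and calls of the pathway list were 1 (from 0) for BPA at 24 hr, 3 (from 5) for BPA added to KBrO3 at 24 hr, 0 (from 1) for BPA added to KBrO3 at 4 hr and 4 (from 8) for KBrO3 at 4 hr. Without a filter on dim probes, calls of the 9 genes were 0 (from 1) for BPA at 24 hr, and calls of the pathway list were 0 (from 1) for BPA added to KBrO3 at 4 hr. With normexp background correction, calls of the 9 genes were 0 (from 1) for BPA at 24 hr, 2 (from 4) for BPA added to KBrO3 at 24 hr, 0 (from 1) for BPA added to KBrO3 at 4 hr, 3 (from 6) for co-exposure at 4 hr and 3 (from 5) for KBrO3 at 4 hr, and calls of the pathway list were 1 (from 5) for BPA added to KBrO3 at 24 hr, 4 (from 9) for co-exposure at 24 hr, 0 (from 1) for BPA added to KBrO3 at 4 hr, 3 (from 10) for co-exposure at 4 hr, 2 (from 6) for KBrO3 at 24 hr and 3 (from 8) for KBrO3 at 4 hr. With the replicate number as a block (replicate block), calls of the 9 genes were 0 (from 1) for BPA at 24 hr, and calls of the pathway list were 2 (from 5) for BPA added to KBrO3 at 24 hr and 0 (from 1) for BPA added to KBrO3 at 4 hr. By the second-brightest probe, calls of the 9 genes were 0 (from 1) for BPA at 24 hr, 0 (from 1) for BPA added to KBrO3 at 4 hr and 3 (from 5) for KBrO3 at 24 hr. With slide as a random block, calls of the 9 genes were 0 (from 1) for BPA added to KBrO3 at 4 hr, and calls of the pathway list were 0 (from 1) for BPA added to KBrO3 at 4 hr and 6 (from 10) for co-exposure at 4 hr. With the filter tightened to all arrays of the set, calls of the 9 genes were 2 (from 4) for BPA added to KBrO3 at 24 hr, 3 (from 6) for co-exposure at 24 hr, 3 (from 5) for KBrO3 at 24 hr and 3 (from 5) for KBrO3 at 4 hr. With single arrays left out, the calls of the 9 genes numbered 4 to 5 for KBrO3 at 4 hr, 5 to 6 for KBrO3 at 24 hr, 5 to 6 for co-exposure at 4 hr, 6 for co-exposure at 24 hr, 0 for BPA at 4 hr, 0 for BPA at 24 hr, 0 to 1 for BPA added to KBrO3 at 4 hr and 3 to 4 for BPA added to KBrO3 at 24 hr, and those of the pathway list 6 to 8 for KBrO3 at 4 hr, 5 to 7 for KBrO3 at 24 hr, 8 to 9 for co-exposure at 4 hr, 7 to 10 for co-exposure at 24 hr, 0 for BPA at 4 hr, 0 for BPA at 24 hr, 0 for BPA added to KBrO3 at 4 hr and 2 to 6 for BPA added to KBrO3 at 24 hr. Median scaling moved the median of all genes by up to 0.32 on the log2 scale, for co-exposure at 24 hr, and quantile normalization by up to 0.13. Under either, none of the 9 genes changed direction in any comparison, nor did a pathway gene in a comparison where it was called. Pathway genes in comparisons where they were not called were left out of this check. Beside the all-gene splits given above, the split of calls into higher and lower moved by over 10 percentage points in places: under median scaling it was 3 and 1 for the pathway list after KBrO3 at 4 hr, 1 and 6 for the 9 genes after co-exposure at 4 hr (1 and 7 with quantile normalization), 4 and 4 for the pathway list after co-exposure at 24 hr, and, for co-exposure against KBrO3 at 24 hr, 0 and 3 for the 9 genes under either scaling and 1 and 2 for the pathway list under median scaling. Arrays of the same replicate number were not taken as paired: their mean residual correlations lay between −0.11 and 0.12. Single pairs of replicate 1 in the second set ran from −0.38 to 0.65, so its 3 pairs do not settle the question there. The series table changed nothing. Signals not well above background limit Edn1 at 4 hr, Edn1, Agtr1a, Agtr2 and Gucy1a1 after co-exposure at 24 hr, Pde5a after co-exposure at 4 hr and the controls of Nppc, all in the first set.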
